A study of Mus musculus with 6 samples.

Results

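TEC genes are gene models that the mouse annotation marks as still needing an experiment to establish them, and 170 of them were counted at a mean of 20 or more reads per islet library. They were chosen from the 15286 genes of the count table by their gene type in GENCODE vM21 and by their mean raw count over all 6 libraries, and symbols ending in os were to be left out (0 were found). The annotation lists 3219 TEC genes, of which 543 had counts in the table analysed here, 373 of these below the threshold. The study sequenced total RNA from pancreatic islets of overnight-fasted, 12-week-old C57Bl/6 N male mice, which were kept for 2 h in 3 mM glucose after isolation. The 3 mice labelled mutant were P07Rik flox/flox, homozygous for a floxed gene-trap allele of the long non-coding RNA gene P07Rik, with no Cre in the labels, and the 3 mice labelled WT carried P07Rik+/+. Litter 1 gave WT2772, WT2777, KO2775 and KO2776, litter 2 gave WT2931 and KO2938, and each mouse gave 1 library. The counts of P07Rik itself were not analysed here, so genotypes are those of the labels.

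Manual annotators use the TEC class for clusters of expressed sequence tags that are unspliced but carry features of a polyadenylated 3′ end, so that a transcript is plausible while its gene is not established. Such models often lie inside a known gene or on the strand opposite it. An unspliced transcript opposite a known gene can be an independent antisense RNA, but in sequencing data the assignment of reads to it depends on how strand is handled during counting.

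Counts assigned to genes numbered between 611181 (KO2776) and 800255 (KO2938) per library. These are 2.04% to 2.67% of the stated depth of about 30000000 single-end reads of 125 bp, so every count given here comes from a small part of the reads. The libraries were strand-specific and the counting used default settings, which give a read to a gene only when the read lies on that gene's strand. Which strand the reads of this kit carry relative to the RNA was not given in the sources used here. Counts from RNA of a TEC gene and from RNA of the gene opposite it therefore cannot be told apart, and every value below is a count listed under a gene name. Ins2, which encodes the insulin that beta cells secrete, had 157, 205 and 158 counts in WT and 165, 128 and 96 in flox/flox. Values for a genotype are given in this order throughout, WT2772 first, WT2777 next, WT2931 last, and likewise KO2775, KO2776, KO2938. All 10 beta cell markers had counts, and their sum was between 225 (KO2938) and 464 (WT2777) per library, with Ins2 the most abundant. Of the other islet markers, the alpha cell genes gave 31 to 133 counts in sum, led by Gcg, and 2 of 3 delta and PP cell genes had counts (9 to 36 in sum, led by Ppy, with Hhex not listed). The 7 acinar markers gave 11 to 43 counts in sum through 6 listed genes, the 3 ductal markers were not listed, and the endothelial, stromal and immune lists stayed between 1 and 12 counts. Counts were thus listed under Ins2 in every library, but fewer than under each of the 12 most abundant TEC genes there. Since the strand of the reads is not known, these counts do not give the level of insulin RNA. AY036118, the most abundant gene of the table, took 13.6% to 22.1% of the counts in 5 libraries and 41.0% in KO2938, which stood apart from the others in this respect.

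The last 30 bases of 6 of the 12 most abundant TEC genes are shown because a polyadenylation signal near the end is part of how the TEC class is defined. They are the 3 genes with the most counts and the 3 of the 12 with AATAAA in this window, so genes with the signal are over-represented among those shown. They were read from the GENCODE vM21 transcripts (GRCm38) 5′ to 3′ on the strand of the TEC gene, and capitals mark the hexamer AATAAA or a run of A.
Gm37376 (chr19:5802364-5802393, plus strand): tccctttacaatctcctaaactgctctggt
Gm10252 (chr7:45460271-45460300, plus strand): attgcacacaatgaagggatatgtcacgtc
Gm43361 (chr5:122500819-122500848, plus strand): agaaaaggaaaggAAAAAAAAAAAAAAAAA
A830073O21Rik (chr7:73737929-73737958, minus strand): acagtgtactcatatacAATAAAttaaagt
Gm42928 (chr3:121424236-121424265, minus strand): tttgaaaaAATAAAAATAAAaattgagagt
Gm9860 (chr7:46208172-46208201, plus strand): gcagtctttgAATAAAgatcaattgatggg
AATAAA, searched on the TEC gene's own strand, occurred in the last 50 bases of 45 of the 170 genes (26.5%), compared with 28.2% of the 373 TEC genes below the threshold and 21.7% of all 3219 annotated TEC genes. Allowing the variant ATTAAA as well, these shares were 40.6%, 39.1% and 28.9%, so the 170 genes were close to the other TEC genes with counts. On the other strand, where the signal reads TTTATT, the last 50 bases held it in 6.47% of the 170 genes and in 4.54% of all TEC genes. The first 50 bases, where an RNA of the other strand with the same boundaries would end, held TTTATT in 6.47% and 5.68%. Genes on the other strand have boundaries of their own, so these shares do not tell which strand was counted. In the first 50 bases AATAAA was found in 2.94% and 3.79%. Gm43361 was among 4 of the 170 genes with at least 15 A in the last 20 bases (2.35%, against 1.8% of all TEC genes). Gm37376 and Gm10252, the pair with the most counts, had no AATAAA in the bases shown, which says only that these letters are not in that window.

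The 170 TEC genes held 4.43% of all counts, from 3.55% in KO2938 to 5.31% in WT2931. Their counts were unevenly spread. Gm37376 alone held 21.5% of them and the 12 most abundant genes 56.7%, while 70 of the genes had a mean below 50 counts. Adjusted for exonic length, which ran from 229 bp (Gm45236) to 30942 bp (9330162G02Rik), the median of the 170 genes was 32.4 counts per kb of exon, and the median of the 10361 protein-coding genes of the table was 1.06. The count threshold sets a floor under the first of these medians. Just inside the threshold stood Gm37648 and Gm42983, with a mean of 20.3 counts each, and Gm43557 with 21.3. Just outside it stood Gm45548 with 19.8, Gm43667 with 19.3 and Gm43682 with 19.2. The label of single-exon transcripts held for 168 of the 170 genes, the exceptions being Gm37939 and Gm38316.

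Gm37376 (chr19:5801941-5802393, plus strand) had 6190, 7240 and 9091 counts in WT and 5504, 5061 and 7215 in flox/flox. All of its 453 bp lie opposite exonic sequence of Malat1, an abundant nuclear long non-coding RNA. Malat1 had 119, 263, 176, 114, 123 and 96 counts in the same libraries. Per kb of exon, Gm37376 had 14827 counts and Malat1 21.3, so that in each library the TEC gene was the side of this locus that carried nearly all counts.

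Gm10252 (chr7:45459469-45460300, plus strand) had 3827, 3124 and 3106 counts in the WT libraries and 3132, 2645 and 2279 counts in the flox/flox libraries. It covers the 5′ end of Ftl1, which encodes the light chain of the iron store ferritin, and 42.7% of its bases lie opposite Ftl1 exons. Ftl1 had between 2 and 7 counts per library, and the levels per kb were 3628 for Gm10252 and 3.11 for Ftl1. Gm43361 (chr5:122496159-122500848, plus strand) had 2486, 2709, 3704, 2269, 2059 and 2614 counts. It differs from the first pair in that only 1.77% of its bases lie opposite an exon, the rest being opposite introns of Atp2a2, the calcium pump of the endoplasmic reticulum. Atp2a2 had 30 to 49 counts per library, and the levels per kb were 563 and 6.39.

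The other genes of the 12 most abundant also lay opposite exons of protein-coding genes, and each exceeded the gene opposite it per kb. 9330162G02Rik had 35.7 counts per kb and Gm44560 111, both opposite Ube3a (0.566), a ubiquitin ligase gene that neurons imprint. Gm43909 had 492.6 counts per kb opposite Bhlhe41 (3.30), a repressor of the circadian clock. Gm43292 had 306 counts per kb opposite Eif2ak3 (0.608), which encodes the stress kinase PERK of the endoplasmic reticulum. Gm43857 had 241 counts per kb opposite the deubiquitinase gene Usp33 (2.29). A830073O21Rik and Gm42928, at 140.1 and 119 counts per kb, both covered the 5′ end of the opposite gene, Fam174b (6.28) and the actin-binding calponin gene Cnn3 (1.92). Gm37676 had 661 counts per kb and lay wholly opposite exonic sequence of Nucks1 (0.565), a nuclear DNA-binding protein gene. Gm9860 had 87.4 counts per kb opposite Ush1c (1.13), which encodes the scaffold protein harmonin. The plot of the 12 genes shows that the 6 libraries lay close together beside the distance to the gene opposite.

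**Figure D1:**
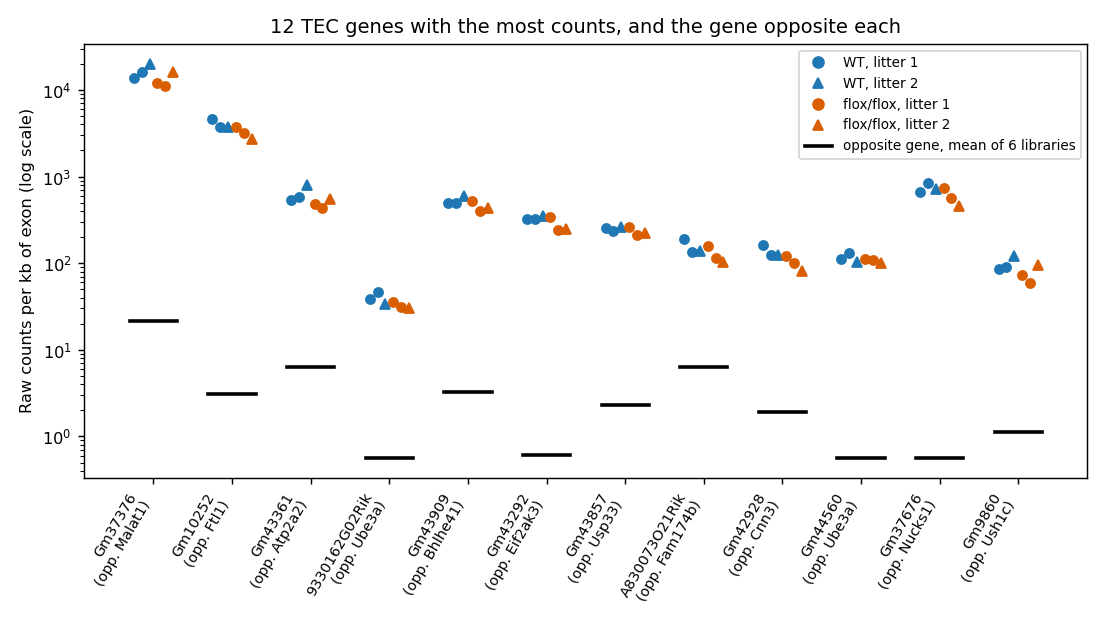
Raw counts per kb of exon (log scale) of the 12 TEC genes with the most counts, 1 point per library (colour: genotype, shape: litter), with the mean of the opposite gene as a black line. Gm37376 averaged 14827 counts per kb and Malat1, opposite it, 21.3.

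TEC genes with a row in the count table differed in position from those without one. Of the 170 genes, 112 (65.9%) lay opposite an exon of another gene, 45 (26.5%) opposite an intron only, 4 (2.35%) overlapped a gene on their own strand only and 9 (5.29%) overlapped no gene. Among the 373 TEC genes below the threshold these shares were 28.4%, 24.9%, 24.7% and 22%. Among the 2676 annotated TEC genes without a row in the table they were 4.97%, 7.29%, 55.6% and 32.2%. Read by position, 62.1% of the 351 TEC genes opposite an exon had a row in the table and 31.9% reached the threshold. For the 333 genes opposite an intron these shares were 41.4% and 13.5%, for the 1583 genes with a same-strand gene only 6.06% and 0.253%, and for the 952 genes without an overlapping gene 9.56% and 0.945%. These shares describe the annotation and the table. Their order followed the position of the TEC gene from opposite an exon to opposite an intron, with both other positions under 10%. The authors counted an earlier annotation release than the one used here for gene types. A TEC gene without a row may have had no reads or may have been absent from that release, and this was not tested.

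**Figure D2:**
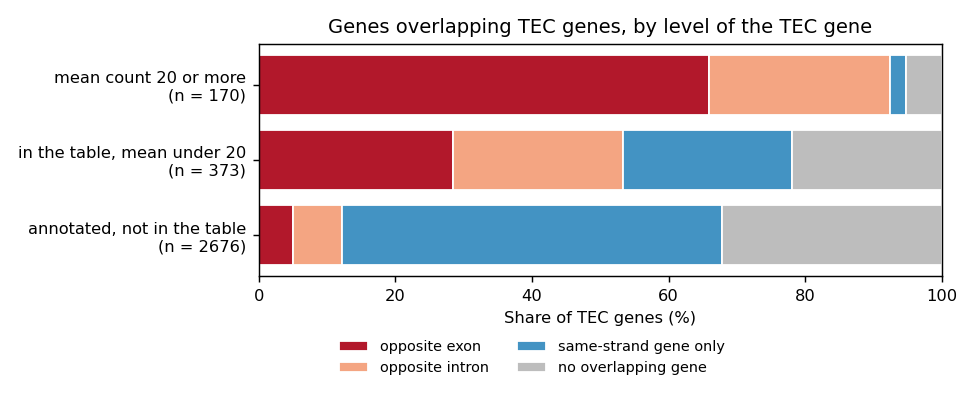
Share (%) of TEC genes in each position class, for the 170 genes at or above a mean of 20 counts, the 373 below it and the 2676 without a row in the count table. A gene on the opposite strand overlapped 92.4% of the first, 53.4% of the second and 12.3% of the third.

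The 112 TEC genes opposite an exon faced 107 genes, and for 104 of the 112 that gene was protein-coding. The overlap with exons was usually partial, with a median of 22.2% of the TEC gene's bases, and 11 genes lay wholly inside opposite exons. Coding bases were opposite 72 of the 112 genes. The 5′ end of the opposite gene was covered by 39 and its 3′ end by 13. The opposite gene had counts for 97 of the 112, and in 94 of these pairs the TEC gene was higher per kb. The median was 42.4 counts per kb for the TEC genes and 1.15 for the genes opposite, and the median ratio within pairs was 45.3. Across the 97 pairs the levels per kb of both sides had a Spearman correlation of 0.0791, given as a description because the pairs share libraries and the TEC side was chosen for its counts.

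In 3 pairs the opposite gene was the higher side. D7Bwg0826e had 30.8 counts per kb and Fuz, a planar cell polarity gene, 59.0. Gm44616 had 28.9 and Cyfip1, which encodes a subunit of the actin-regulating WAVE complex, 57.4. Gm18310 had 15.7 and Hddc3 24.7. In all 3 pairs the TEC side was below the median of 42.4. Gm43737 with 47.1 counts per kb lay close to Mtx1 with 38.2.

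**Figure D3:**
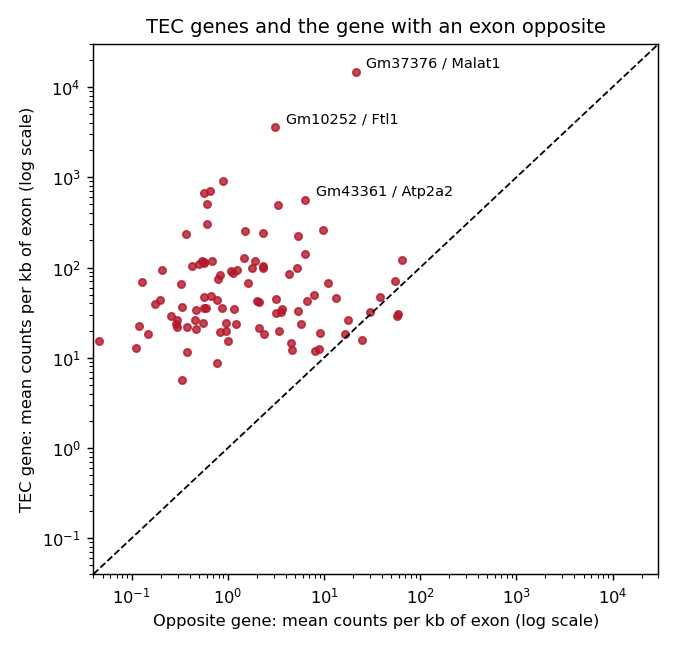
Mean counts per kb of exon (log scales) of the TEC gene and of the gene with an exon opposite, 1 point for each of the 97 pairs with counts on both sides, with equality dashed. 94 points lie above the line and 3 below it, and only the TEC side was chosen for its counts.

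Several TEC genes shared an opposite gene and so are not independent. Ube3a faced 9330162G02Rik, Gm44560 and Gm44562. Usp33 faced Gm43857, Gm42967 and Gm43859, and Ppp2r3a, a regulatory subunit of protein phosphatase 2A, faced Gm37621, Gm37953 and Gm37962. Hnrnpf, Pds5a, Mettl9, Kansl1l and Slc6a6 each faced a pair of TEC genes. Along Usp33, Gm43857 at the 3′ end had 241 counts per kb and Gm43859, further upstream, 104. Along Ube3a the levels were 35.7 for 9330162G02Rik, 22.5 for Gm44562 and 111 for Gm44560, against 0.566 for Ube3a.

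The 45 TEC genes opposite introns only faced 43 protein-coding genes and 1 antisense gene, 1600010M07Rik, and 36 of them faced a gene with counts. Gm38273 lay opposite an intron of Cacnb2, a calcium channel subunit gene, and also inside an intron of the antisense gene Gm10848 on its own strand. A gene on the same strand contained or overlapped 13 of the 170, of which Gm37939 shared exon sequence with Hip1r and 12 lay in introns. Gm45487 lies in an intron of Abcc8, which encodes the sulfonylurea receptor of the beta cell's potassium channel, and had 44.0 counts per kb beside 41.1 for the exons of Abcc8. 5930420M18Rik lies in an intron of the tubulin deglutamylase gene Agbl5 and had 30.2 counts per kb beside 74.7 for Agbl5.

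Of the 9 TEC genes that overlapped no gene, Gm42944 had the highest mean, 87.3 counts, and its nearest annotated gene was 11330 bp away. The other 8 were closer to a neighbour. Gm43379 and 2810428J06Rik lay 230 bp apart on the same strand, Gm42492 lay 296 bp from the opposite-strand gene St18, and Gm44815 1857 bp from Isg20, an interferon-induced exonuclease gene. Their levels were between 5.57 and 26.8 counts per kb, all below the median of 32.4 of the 170 genes.

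The study asked whether islet RNA differs between flox/flox mice and WT littermates. For this comparison all 170 TEC genes passed the filter on low counts. With edgeR's quasi-likelihood test and Benjamini-Hochberg adjustment over all 5478 genes tested, 0 TEC genes and 0 genes in all (0.0%) passed an adjusted p of 0.05, and the smallest adjusted p was 1.00. At an unadjusted p under 0.05 there were 2 TEC genes (1.18%) and 101 genes in all (1.84%). The log2 fold changes of the TEC genes, flox/flox over WT, ran from -0.66 to 0.57 with a median of 0.014, against a median of -0.011 over all genes tested. Their median standard error was 0.22 (log2 scale, n = 3 against 3), so small differences were not detectable with these libraries. With litter as a block, 0 TEC genes and 3 genes in all (0.0548%) passed, and 10 TEC genes (5.88%, beside 5.4% of all genes) had an unadjusted p under 0.05. With the 3 littermate pairs as the block instead, these counts were 0, 3 and 10. Among the 55 tested genes that contain or have an exon opposite a TEC gene, 0 passed and 3 had an unadjusted p under 0.05 (5.45%), or 7 with litter as a block (12.7%).

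Gm42729, opposite the cohesin regulator gene Pds5a, had the smallest unadjusted p. It had 113, 109 and 115 CPM (counts scaled by TMM and library size) in WT and 144, 183 and 173 CPM in flox/flox. The 3 flox/flox libraries lay above the 3 WT libraries. The log2 fold change was 0.57 (SE 0.17), with an adjusted p of 1.00, and an adjusted p of 0.297 in the edgeR fit with litter as a block. Pds5a itself had a log2 fold change of 0.052 (SE 0.23). Gm44815 had 61.7, 66.2 and 43.3 CPM in WT and 45.9, 22.9 and 38.4 CPM in flox/flox, and the groups overlapped. Its log2 fold change was -0.66 (SE 0.30), also with an adjusted p of 1.00.

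Small unadjusted p-values also belonged to A930005N03Rik (0.29, SE 0.14), opposite the cytoskeletal linker gene Dst, and Gm37962 (0.52, SE 0.25), opposite an intron of Ppp2r3a, on the higher side. On the lower side 5930420M18Rik, inside Agbl5, had a log2 fold change of -0.31 (SE 0.18, edgeR unadjusted p = 0.105). None of these values passed the adjusted test. The groups did not overlap for 17 of the 170 TEC genes (10%), beside 7.43% of all genes tested. Of these 17, 13 were higher in every flox/flox library (7.65%, beside 3.74% of all genes) and 4 lower (2.35%, beside 3.69%). For a single gene an exact two-sided permutation test of 3 against 3 libraries cannot give a p below 0.10.

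**Figure D4:**
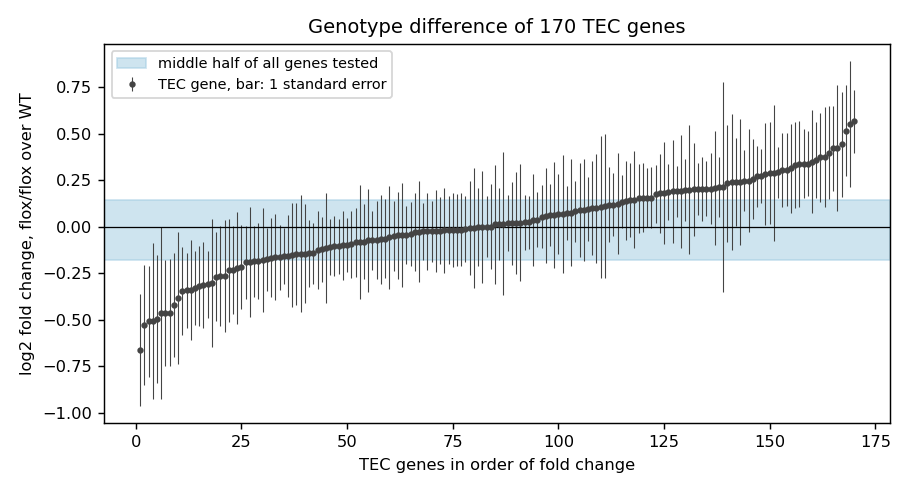
Log2 fold change (flox/flox over WT) of each of the 170 TEC genes in rising order, with bars of 1 standard error and a band that spans the quartiles of all 5478 genes tested. The values run from -0.66 to 0.57, and 0 passed the adjusted test.

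The labels also give the litter, and the litters differed more than the genotypes. Litter 2 has 2 libraries, 1 of each genotype, and what was done separately for each litter cannot be told apart from the litter. The litter test treats the 6 libraries as independent, although littermate pairs deviated together and litter 2 is a single pair, so its p-values are likely too small. With genotype in the edgeR model, 21 of the 170 TEC genes (12.4%) passed an adjusted p of 0.05, beside 620 of all 5478 genes (11.3%). Of the 21, 15 were higher in litter 2 (8.82%, beside 6.08% of all genes) and 6 lower (3.53%, beside 5.24%). This balance depended on the scaling. KO2938, 1 of the 2 libraries of litter 2, stood apart, with 41.0% of its counts in AY036118 and a TMM factor of 0.739 (0.973 to 1.12 in the others). Without it 20 TEC genes passed, 13 of them among the 21. With library size only, 1 TEC gene passed higher (Gm45487) and 5 lower, and over all genes 46 passed higher and 219 lower, so the other TEC genes given here as higher did not pass under that scaling. With DESeq2, 9 of the 21 passed. The genes that did not were Gm45487, 4930517G19Rik, 4930435N07Rik, Gm44443, Gm47992, Gm43785, 1700016A09Rik and 2210406H18Rik on the higher side and Gm5112, Gm37905, Gm44878 and Gm43379 on the lower side. At an unadjusted p under 0.05 there were 56 TEC genes (32.9%, beside 25.2% of all genes), and the litters did not overlap for 64 (37.6%, beside 32.9%). In the edgeR fit with genotype in the model, the share of TEC genes that passed was thus close to that of all genes. With DESeq2, 3.4% of all genes passed beside the 9 TEC genes, and with library size only 4.84%. Without the low-count filter 19 of the 170 TEC genes passed, beside 3.57% of all 15286 genes. That fit cannot compare the shares, because every TEC gene here was chosen for its counts. Of the whole table, only 3516 genes reached the threshold set for the TEC genes. The alpha cell marker sums were 60, 133, 52 and 69 counts in WT2772, WT2777, KO2775 and KO2776 of litter 1. In WT2931 and KO2938 of litter 2 they were 48 and 31, below all of litter 1. The beta cell marker sums were 343, 464, 353 and 296 in litter 1, and 328 and 225 in litter 2. These sums are raw counts, not scaled for library size or for the share taken by AY036118, and were not tested. As for Ins2, counts listed under a marker do not give the level of its RNA, since the strand of the reads is not known. In bulk tissue, fewer cells of a type and less RNA per cell cannot be told apart, and this holds for each difference given here.

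Gm44981 had 273, 296, 272 and 266 CPM in WT2772, WT2777, KO2775 and KO2776 of litter 1, and 520.5 and 389.7 CPM in WT2931 and KO2938 of litter 2. Both litter 2 libraries lay above all of litter 1. The log2 fold change, litter 2 over litter 1, was 0.71 (SE 0.13, adjusted p = 7.4e-05). It lies opposite Slc6a6, the taurine transporter gene, which had 2 to 7 counts per library. A second TEC gene opposite Slc6a6, 4930517G19Rik, lies 19727 bp away opposite an intron and was also higher (0.59, SE 0.14). Without WT2931 neither passed.

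Gm43737, opposite the mitochondrial import gene Mtx1, had 132, 136, 209 and 151 CPM in litter 1 (same order of libraries) and 283 and 239 CPM in litter 2. The libraries of the litters did not overlap, but KO2775 was closer to litter 2 than the others of litter 1. Its log2 fold change was 0.75 (SE 0.15), and it did not pass without WT2931. Gm38273, in the intron of Gm10848, had 187, 191, 188 and 171 CPM in litter 1 and 287 and 297 CPM in litter 2 (0.66, SE 0.14). Gm10848 itself was higher in litter 2 by 0.73 (SE 0.13). Gm9860, opposite Ush1c, had 427, 426, 398 and 377 CPM in litter 1 and 604 and 605 CPM in litter 2, with a log2 fold change of 0.57 (SE 0.12). For Gm38273 and Gm9860 the values within each litter lay close together.

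The TEC gene with the largest rise was Gm45487, inside Abcc8. It had 19.2, 27.3, 20.7 and 28.2 CPM in litter 1, and 75.7 and 40.2 CPM in WT2931 and KO2938 of litter 2. WT2931 was far the highest library. The log2 fold change was 1.30 (SE 0.29, adjusted p = 0.0012), and it did not pass without WT2931 or with DESeq2. Abcc8, which contains it on the same strand, had 260, 276, 206 and 207 counts in litter 1 and 648 and 400 counts in litter 2. Its log2 fold change was 1.18 (SE 0.12, adjusted p = 4.2e-10). Host gene and TEC gene thus both rose, and whether reads of unspliced Abcc8 RNA were counted under Gm45487 was not tested.

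Of the 12 most abundant TEC genes, Gm37376, Gm43361 and Gm9860 rose and none of the others passed the test. Gm10252, the next in abundance after Gm37376, had a log2 fold change of -0.18 (SE 0.14, adjusted p = 0.426). Gm37376 had 8493, 9397, 8148 and 8913 CPM in litter 1 and 12291 and 12609 CPM in litter 2 (0.51, SE 0.14, adjusted p = 0.0122), and it did not pass in 4 of the fits that each left out 1 library (WT2772, KO2775, KO2776 or KO2938). Gm43361 had 3411, 3516, 3359 and 3626 CPM in litter 1 and 5008 and 4568 CPM in litter 2 (0.46, SE 0.13). It did not pass without WT2772 or without WT2931. Both genes had all litter 2 libraries above all of litter 1.

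Of the other genes that rose, Gm45290 (0.62, SE 0.14) lies opposite an intron of Fto, an RNA demethylase gene. Gm44443 (0.57, SE 0.17) lies opposite an intron of Dennd1a, a Rab activator gene, and 4930435N07Rik (0.56, SE 0.16) opposite an intron of Fam155a. Gm47992 (0.66, SE 0.20), 2210406H18Rik (0.78, SE 0.27), Gm43785 (0.77, SE 0.25) and 1700016A09Rik (0.74, SE 0.25) lie opposite Agpat3, Mettl9, Med13l and Gse1. Each of these 7 genes lost its call in a fit that left out 1 library. This was WT2931 alone for Gm45290, any flox/flox library for Gm44443, and WT2931, KO2775 or KO2938 for 4930435N07Rik. It was WT2777, WT2931, KO2776 or KO2938 for Gm47992, WT2772 or any flox/flox library for 2210406H18Rik, any WT library, KO2775 or KO2938 for Gm43785, and any WT library or KO2776 for 1700016A09Rik. For 1700016A09Rik the litters overlapped, with 45.4 CPM in KO2938 and 50.3 in KO2775. 2210406H18Rik also did not pass with limma-voom or without the low-count filter.

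Of the 6 TEC genes that fell, Gm43198 fell most. It had 53.5, 41.5, 65.1 and 37.0 CPM in litter 1, and 6.76 and 14.0 CPM in WT2931 and KO2938 of litter 2. Both litter 2 libraries lay below all of litter 1, at 5 and 8 raw counts. The log2 fold change was -2.29 (SE 0.38), and its 326 bp lie opposite exonic sequence of the non-coding gene Gm20559. Gm38316, opposite exons of Pnp, a purine salvage enzyme gene, had 147, 165, 178 and 174 CPM in litter 1 and 81.1 and 92.6 CPM in litter 2. Its log2 fold change was -0.93 (SE 0.17). These genes passed in each alternative in which they were tested, 14 for Gm43198 and 15 for Gm38316.

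Gm5112 fell by 1.16 (SE 0.30) and Gm43379 by 0.80 (SE 0.25) on the log2 scale, and both overlap no gene. Gm37905 fell by 1.07 (SE 0.28) opposite the co-chaperone gene Bag2, and Gm44878 by 0.50 (SE 0.15) at the 5′ end of Ppp6r1, which encodes a subunit of protein phosphatase 6. Gm5112 and Gm37905 did not pass without KO2938. Gm44878 did not pass without WT2772, WT2931 or KO2775, with library size only or without the low-count filter, and Gm43379 not without WT2777 or WT2931.

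The genes that contain a TEC gene or have an exon opposite gave 7 of 55 (12.7%) past the adjusted test between litters, beside the 11.3% of all genes. Of 7 other tested genes with only an intron opposite a TEC gene, 0 passed. Besides Abcc8 and Gm10848, Vps37b, an endosomal sorting gene (0.87, SE 0.27), 4930439A04Rik (0.94, SE 0.17) and Cc2d1b (0.72, SE 0.19) were higher in litter 2. Cyfip1 (-0.52, SE 0.13) and Ppp1r15b, which encodes a phosphatase subunit that reverses the translational stress response (-1.62, SE 0.52), were lower. With DESeq2, Cc2d1b, Vps37b and Ppp1r15b did not pass. Ppp1r15b also did not pass with limma-voom or without the low-count filter. With library size only, Abcc8 and Ppp1r15b alone passed. Leaving out 1 library ended the call of Cc2d1b (WT2931), Cyfip1 (KO2938), Vps37b (any WT library or KO2775) and Ppp1r15b (any WT library, KO2776 or KO2938). Most genes opposite the TEC genes that passed could not be tested, because their counts were below the filter or they had none here. Those tested did not pass: Malat1 (-0.13, SE 0.17), Atp2a2 (0.026, SE 0.23), Mtx1 (0.14, SE 0.14), Cacnb2 (0.12, SE 0.35) and Gse1 (0.51, SE 0.30).

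By position, TEC genes opposite introns were mostly on the higher side in litter 2, and those opposite exons were not. Of the 45 opposite introns, 37 had a positive log2 fold change (82.2%, median 0.29). In this class 7 passed higher and 0 lower (15.6%, beside 11.3% of all genes). These calls became 0 with library size only, 2 higher with DESeq2, 3 higher without WT2931, and 5 higher and 2 lower without KO2938. Of the 112 opposite exons, 48 were positive (42.9%, median -0.077), 7 passing higher and 4 lower (9.82%). Of all genes tested, 49.4% were positive (median -0.0092). With DESeq2, 4.44% of the intron class passed, beside 3.4% of all genes, and with library size only 0.0% beside 4.84%. For the 9 genes without an overlapping gene, 2 were positive (median -0.35) and 2 passed lower.

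The median log2 ratio of the intron class to each gene's own mean was -0.18, -0.075, -0.19 and -0.089 in WT2772, WT2777, KO2775 and KO2776, and 0.14 and 0.21 in WT2931 and KO2938. Both litter 2 libraries were above all of litter 1. For the exon class the same values lay between -0.085 (WT2931) and 0.045 (KO2775). Among the TEC genes below the threshold that could be tested, 21 of 32 opposite introns (65.6%) and 7 of 32 opposite exons (21.9%) were positive, but these come from the same libraries. Of these intron genes 2 passed higher and 3 lower, and 7 of the 12 genes below the threshold without an overlapping gene were positive (median 0.17), unlike the 2 of 9 above it. When counts were scaled by library size alone, which moved the median of all genes to -0.19, 28 of the 45 genes were positive with a median of 0.11. Differences between position classes were described and not tested, since genes are not replicates of a litter.

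**Figure D5:**
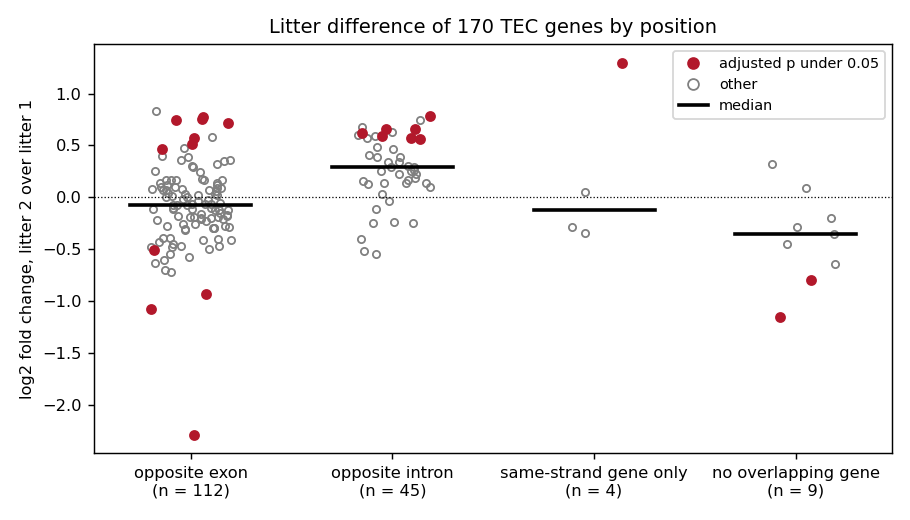
Log2 fold change (litter 2 over litter 1, genotype in the model) of the 170 TEC genes by position class, with filled points for an adjusted p under 0.05 and black lines for class medians. 37 of 45 genes opposite introns lie above 0, and Gm43198 is the lowest point at -2.29.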

How the data were processed

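The authors prepared strand-specific total RNA libraries, removed ribosomal reads, aligned the others to mm10 using HISAT2 2.1.0 and counted Ensembl genes with HTSeq (default settings apart from the mapping quality). The deposited values are raw counts per gene. Columns of the authors' own DESeq2 comparison (fold changes and p-values) were not used. Gene types, exons and strands came from GENCODE vM21 on GRCm38, which matched 15258 of 15286 identifiers (28 unmatched), a later release than the authors'. The TEC genes and all lists were chosen with earlier results of these data known.

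Genotype (without and with a litter block) and litter were tested with edgeR 4.0.16 (TMM scaling, quasi-likelihood test, Benjamini-Hochberg over 5478 genes kept by a minimum count of 10), in R 4.3.3, after tests on simulated data. Partner genes were those containing a TEC gene or having an exon opposite (126, 55 tested). Genes were named by rule: the 12 most abundant, the 3 smallest p-values per direction and comparison, all past an adjusted p of 0.05, and 3 on each side of the threshold. A gene pair that the rule names and a marker are not reported here. Others are named because their position is described, chosen after values were seen. P-values set a difference against the spread between mice, which in the genotype fit without the block includes the difference between litters. The spread between litters was not estimated, since each side of the litter test is a single litter. Assigned counts were 611181 to 800255 per library.

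Litters pair libraries by the labels. Deviations from the genotype means correlated at 0.141 to 0.458 for WT and flox/flox libraries of the same litter and -0.349 to -0.254 across litters. The study describes 3 littermate pairs. Those with the same labelled number in litter 1, and the pair of litter 2, correlated at 0.273, 0.178 and 0.458, and a block on these pairs was added after seeing the data. No libraries were duplicates. Alternatives were DESeq2 1.42.0, limma-voom (limma 3.58.1), other scalings and filters, other thresholds and overlaps, and leaving out each library.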

Additional observations from a re-analysis of the deposited data

How the results depend on the processing

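For genotype, 0 TEC genes passed under every alternative run, while over all genes 0 became 2 with scaling by library size only, 3 with litter as a replicate block and 0 to 1 when each library was left out. With the replicate block on litter the TEC genes at an unadjusted p under 0.05 went from 2 to 10 (5.88%, beside 5.4% of all genes), and no TEC or partner gene passed the adjusted test with the block. A replicate block on the 3 littermate pairs, added after seeing the data, also gave 3 genes in all and 0 TEC genes. The median log2 fold change of the TEC genes was -0.19 with library size only, 0.054 without the low-count filter and 0.0073 to 0.036 when each library was left out. Between litters, all genes that passed numbered 186 with DESeq2, 265 with library size only and 233 to 540 when each library was left out. TEC genes numbered 9, 6 and 10 to 20, the lowest without WT2931, and partner genes 4, 2 and 5 to 7. All 9 and all 6 were among the 21, but only 13 of 20 without KO2938 and 15 of 19 without WT2772. The litter median of the TEC genes was -0.17 with library size only, 0.058 without the filter, 0.0081 where each library needed 10 counts or more and -0.010 to 0.034 when each library was left out. A threshold of 50 kept 100 TEC genes, and requiring an opposite exon along at least 50% of the length left 20 of 112. The cause of these changes was not tested. Where only 1 library of litter 2 was left, it was assumed to vary like the others. Over the 21 TEC genes called between litters and all alternatives, 242 of 313 values kept the call and 71 did not.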

Other observations

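The 170 TEC genes lay on 14 chromosomes, with 30 on chromosome 7, 25 each on chromosomes 1 and 5 and 22 on chromosome 6, while 0 lay on chromosomes 11, 12, 15, 16, 18, X and Y. Annotated TEC genes are unevenly placed as well, with 501 on chromosome 5 and 475 on chromosome 1 but 15 on chromosome 11. The coefficient of variation over the 6 libraries, on the CPM scale, ran from 4.95% for Gm44986, opposite the mitochondrial complex gene Ndufab1, to 61.9% for Gm43198. Gm43292, opposite Eif2ak3, varied by 7.25% and was thus among the steadiest of the abundant genes.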
